A study of Bos taurus with 15 samples.

Results

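The oocyte-secreted growth factor genes GDF9 and BMP15, the zona pellucida genes ZP2, ZP3 and ZP4, the receptor gene KIT and the oocyte genes ZAR1 and NPM2 were followed in bovine (Bos taurus) blastocysts at day 7. They were chosen by name, as transcripts that an oocyte could have left behind, and 8 of 8 were found among the 17259 genes of the deposited table. RNA with a poly(A) tail was sequenced in 3 groups of 5 libraries. The automatic group held blastocysts from zygotes stripped of their cumulus cells by an automatic procedure, and the manual group blastocysts from zygotes stripped by hand. Both were then grown in SOF medium, a synthetic oviduct fluid, and are called in vitro here. The in vivo group held blastocysts collected at day 7 from the animal. The design text gives 5 blastocysts a group, the number of libraries, and the labels give no breed, donor, sire or culture batch. P-values therefore reflect how far these libraries differ from each other, for technical or other reasons. No oocyte or early cleavage stage is among the libraries, so RNA carried over from the oocyte and RNA made by the embryo cannot be told apart, and fewer cells of a type cannot be told apart from less RNA per cell.

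The growing oocyte secretes GDF9 and BMP15, ligands of the transforming growth factor family that act on the surrounding granulosa and cumulus cells. The oocyte also builds the zona pellucida, the glycoprotein coat that binds sperm and encloses the embryo until hatching, from ZP2, ZP3 and ZP4. KIT is the receptor tyrosine kinase for KIT ligand (KITLG), which granulosa cells supply to the oocyte. In mice, ZAR1 binds stored maternal mRNA and NPM2, the oocyte nucleoplasmin, is a histone chaperone needed in the early embryo. Most maternal mRNA is degraded when the embryonic genome is activated, which in cattle takes place well before the blastocyst forms.

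Library totals ranged from 17.96 M to 41.97 M estimated counts (M, 1000000). Values are given as counts and as CPM, counts per 1000000 after TMM scaling (a correction for differences in composition between libraries), which can be compared between libraries but not between genes, since transcript lengths were not used. A count of 0 allows up to 3 counts, or 0.0614 to 0.230 CPM depending on the library, for counting error only. In 5 libraries (automatic 2 and 4, manual 2, in vivo 2 and 4), called low-detection libraries (fewer than 9000 genes at 10 or more counts), 6977 to 8547 genes reached that count, against 9900 to 12611 genes in the other 10. Over the 15 libraries, 12 of 12 trophectoderm, 6 of 6 epiblast and 6 of 6 hypoblast markers reached 10 counts in at least 1 library. Within a group the lowest tallies were 11 of 12 trophectoderm markers in the automatic group and 5 of 6 hypoblast markers in the automatic and in the manual group. The labels also call the cells blastomeres.

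The 8 genes fell into 3 kinds by their counts. KIT had counts in all 15 libraries and ZP3 in 14, and ZP3 reached 100 or more counts in 13 libraries and KIT 408 or more in all. GDF9, BMP15 and ZAR1 were found in some libraries and missing from others, while ZP2, ZP4 and NPM2 were at or near 0 nearly everywhere. Between 2 and 5 of the 8 genes reached 10 counts in a library, with 2 to 5 in the automatic group, 3 to 5 in the manual group and 2 to 4 in vivo. Summed over GDF9, BMP15, ZP2, ZP4, ZAR1 and NPM2, the counts ranged from 49 to 439 in automatic libraries, from 21 to 407 in manual libraries and from 0 to 89 in vivo. The in vivo library at 0 was in vivo 5. The filter on low counts (edgeR filterByExpr, about 10 counts in at least 5 libraries) kept GDF9, BMP15, ZP3 and KIT, so that 4 of the 8 genes were tested. A gene can pass that filter through the group in which it is high.

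**Figure D1:**
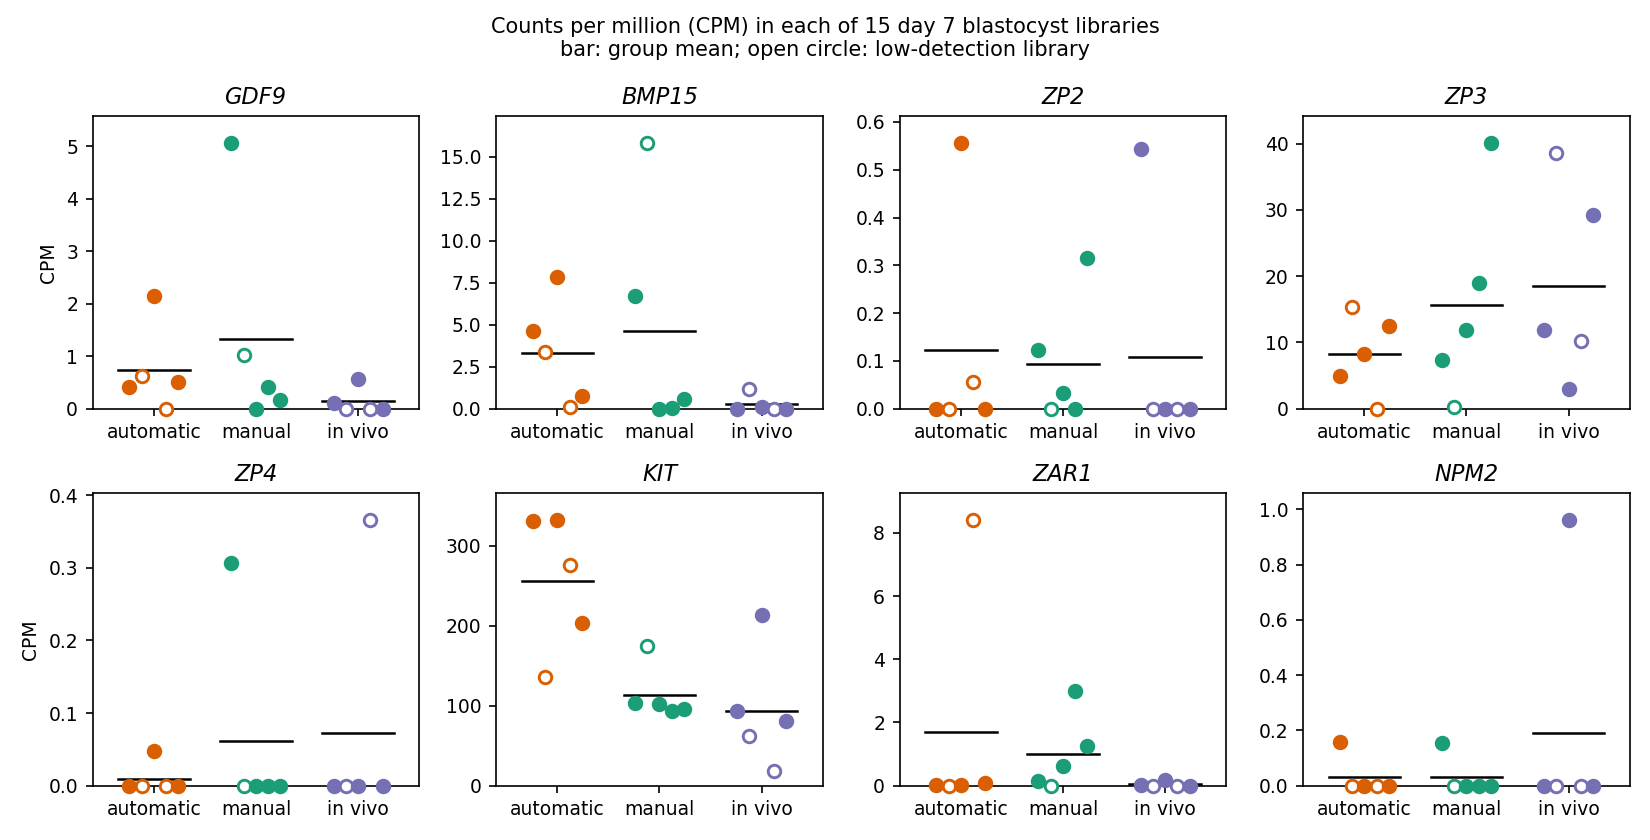
CPM (y axis, linear, each gene on its own scale from 0) of the 8 genes in the automatic, manual and in vivo groups (x axis); each circle is 1 library, bars are group means and open circles are low-detection libraries. KIT lies at 136 to 332 CPM in automatic libraries, and ZP2, ZP4 and NPM2 stay below 1 CPM in all 15 libraries.

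BMP15 was found more often in cultured blastocysts than in those collected in vivo, without passing the test. It had 4.63, 3.35, 7.84, 0.111 and 0.727 CPM in automatic libraries 1 to 5. In manual libraries 1 to 5 it had 6.70, 15.8, 0, 0.0314 and 0.579 CPM. In vivo it was at 0 in libraries 1, 4 and 5, at 1.15 CPM in library 2 (15 counts) and at 0.123 CPM in library 3 (6 counts). High values thus occurred in 3 automatic and 2 manual libraries, and the lowest cultured libraries overlapped with those collected in vivo. BMP15 averaged 3.33 ± 3.13 CPM in automatic libraries, 4.63 ± 6.87 CPM in manual libraries and 0.254 ± 0.502 CPM in in vivo libraries (SD over 5 libraries each). Without the low-detection libraries, BMP15 was at 0.727 to 7.84 CPM in the 3 automatic libraries and at 0 to 0.123 CPM in the 3 in vivo libraries, with no overlap; in these libraries 8.81% of the genes had all automatic above all in vivo values.

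For BMP15 the log2 fold change of in vitro against in vivo was 3.97 ± 2.09 (SE), with a 95% interval from -0.59 to 8.53 and an edgeR adjusted p of 0.885. It was 3.35 without manual 2 and 6.74 without in vivo 2, the library with 15 of the 21 in vivo counts. The value for automatic against in vivo was 3.73 ± 2.17, and that for manual against in vivo 4.21 ± 2.21. Both share the in vivo libraries. Between automatic and manual denudation BMP15 differed by -0.47 ± 1.94, with an interval from -4.69 to 3.74, so that neither direction nor a large difference could be established. That value was 1.29 without the low-detection libraries and 0.863 without manual 2, the library with the highest BMP15.

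GDF9, the partner of BMP15, was low in all groups and was detected in more cultured libraries. It reached 10 counts in 4 of 5 automatic libraries, 3 of 5 manual libraries and 1 of 5 in vivo libraries. Automatic libraries 1 to 5 had 0.406, 0.623, 2.15, 0 and 0.511 CPM. Manual libraries 1 to 5 had 5.07, 1.03, 0, 0.409 and 0.158 CPM, and manual 1 alone held 165 of the 203 counts of its group. In vivo libraries 1 and 3 had 0.113 and 0.573 CPM and the other 3 were at 0, so the groups overlapped at the low end. The log2 fold change of in vitro against in vivo was 2.78 ± 1.76 (SE, 95% interval from -1.05 to 6.60, edgeR adjusted p = 0.983). Leaving out 1 library moved that value to 1.92 (manual 1) or 4.78 (in vivo 3). GDF9 differed from in vivo by 2.35 ± 1.84 after automatic and by 3.20 ± 1.91 after manual denudation. The first ran from 1.44 without automatic 3 to 4.37 without in vivo 3, and the second from 1.47 without manual 1 to 5.19 without in vivo 3. Between automatic and manual denudation it differed by -0.85 ± 1.77, and by 0.901 without manual 1.

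GDF9 and BMP15 were often found together: both reached 10 counts in 4 of 5 automatic, 2 of 5 manual and 0 of 5 in vivo libraries. Manual 4 and in vivo 3 reached it for GDF9 alone (13 and 28 counts), and manual 5 and in vivo 2 for BMP15 alone (11 and 15 counts). Over the 15 libraries their log2 CPM correlated with Pearson r = 0.735 (permutation p = 0.00274, adjusted p = 0.0164 over 6 pairs of tested genes) and Spearman rho = 0.762 (permutation p = 0.00183, adjusted p = 0.011). Pearson r was 0.790 within the 10 cultured libraries and 0.804 within the 10 libraries that are not low-detection. Without the 2 libraries farthest from the median of GDF9, it was 0.696. The farthest was manual 1. All libraries at 0 counts of GDF9 tied for the second place, so which of them was left out was arbitrary, and the value depends on it. The points share libraries in which both genes are at or near 0, and the relation of GDF9 to the number of genes detected in a library did not pass (Pearson r = 0.535, permutation p = 0.0409, adjusted p = 0.164 over 4 tested genes; Spearman rho = 0.509, permutation p = 0.055, adjusted p = 0.220). With the 2 libraries most extreme in that number left out, r was 0.358, and it was 0.745 within the 10 libraries that are not low-detection. For BMP15 the same relation had Pearson r = 0.032 (permutation p = 0.908) and Spearman rho = 0.115 (permutation p = 0.682), with Pearson r = 0.504 within the 10 libraries that are not low-detection. The part of detection in the joint pattern was not tested.

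**Figure D2:**
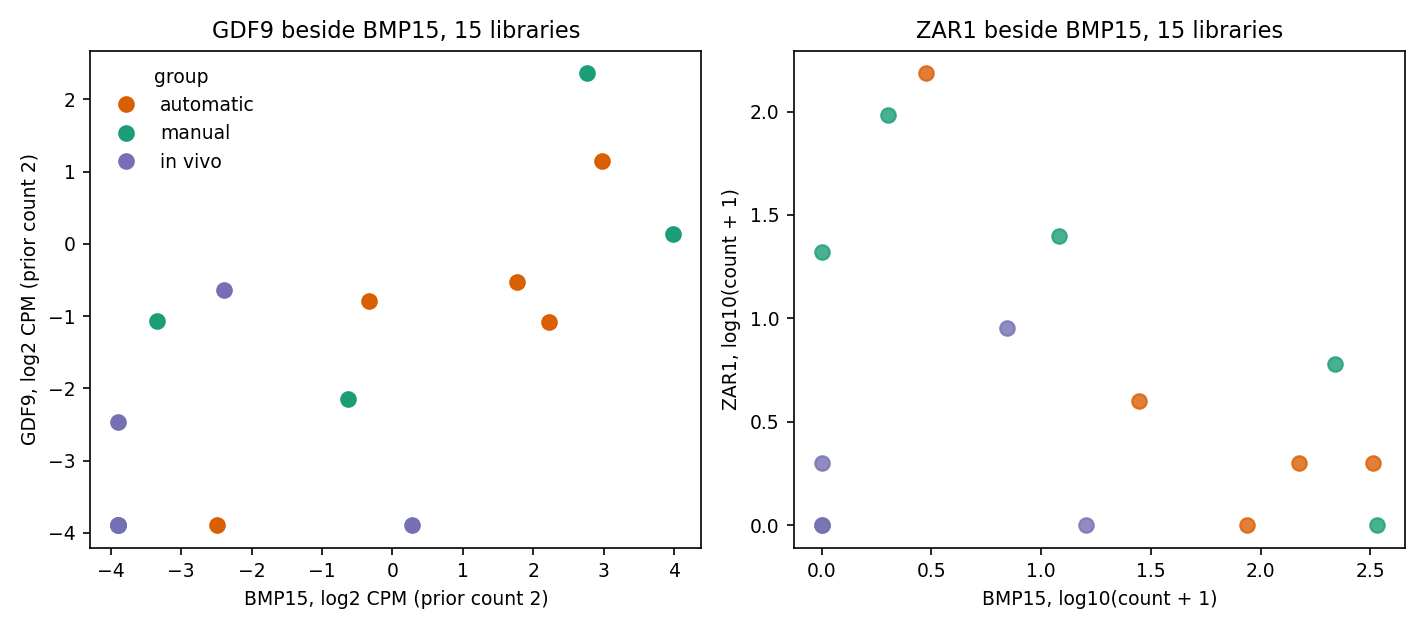
Left, GDF9 (y axis) against BMP15 (x axis), both as log2 CPM with a prior count of 2; right, ZAR1 (y axis) against BMP15 (x axis), both as log10 of the count plus 1; each point is 1 of 15 libraries, coloured by group, with manual 3, in vivo 4 and in vivo 5 coinciding at the lowest values at left and in vivo 4 and 5 at right. GDF9 and BMP15 tend to be high in the same libraries (Pearson r = 0.735), while the library with 152 ZAR1 counts has 2 BMP15 counts.

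ZAR1 was highest in other libraries than GDF9 and BMP15, although the sets of libraries with counts overlapped in part. Automatic 4 had 152 counts (8.41 CPM), while automatic 1, 2, 3 and 5 had 1, 0, 1 and 3 counts. Manual 3, 4 and 5 had 20, 95 and 24 counts (0.632, 2.99 and 1.26 CPM), manual 1 had 5 and manual 2 had 0. In vivo 1 and 3 had 1 and 8 counts, and the other in vivo libraries were at 0. Cultured libraries thus held all values of 10 or more, in 1 automatic and 3 manual libraries. The libraries with the most ZAR1, automatic 4 and manual 4, had 2 and 1 counts of BMP15. In turn manual 2 and automatic 3, with 338 and 324 counts of BMP15, had 0 and 1 counts of ZAR1. Manual 5, however, had 11 counts of BMP15 beside 24 of ZAR1, and manual 4 had 13 counts of GDF9. The relation of ZAR1 to GDF9 or BMP15 was not tested. ZAR1 did not pass the filter on low counts. Fitted without that filter it differed by log2 4.89 for in vitro against in vivo (unadjusted p = 0.0447, edgeR adjusted p = 0.452). Without the low-detection libraries, of which automatic 4 is 1, the value was 1.90 (edgeR adjusted p = 0.899). For automatic against in vivo it was then -0.43, against 5.27 in the unfiltered fit of all libraries. For automatic against manual it was -4.68 (edgeR unadjusted p = 0.0425, not passing the adjusted test), against 0.752. In these libraries ZAR1 lay at 0.0242 to 0.0807 CPM in automatic and at 0.154 to 2.99 CPM in manual libraries, without overlap. The share of all genes with all automatic below all manual values there was not counted. Its paralogue ZAR1L, which was tested, differed by log2 1.94 ± 1.27 for in vitro against in vivo (SE, edgeR unadjusted p = 0.142). ZAR1L had counts in all 15 libraries.

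Among the zona pellucida genes, ZP3 was the 1 gene with sizeable counts, and it did not follow GDF9 or BMP15. Automatic libraries 1 to 5 had 4.88, 15.4, 8.27, 0 and 12.4 CPM. Manual libraries 1 to 5 had 7.31, 0.187, 11.8, 18.9 and 40.1 CPM. In vivo libraries 1 to 5 had 11.8, 38.6, 2.99, 10.2 and 29.2 CPM. The groups overlapped over most of their range, and the 2 libraries near 0, automatic 4 and manual 2, were both low-detection libraries. ZP3 averaged 8.18 ± 6.06 CPM in automatic libraries, 15.7 ± 15.3 CPM in manual libraries and 18.5 ± 14.8 CPM in in vivo libraries (SD over 5 libraries each).

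ZP3 differed by log2 -0.71 ± 1.11 for in vitro against in vivo (SE, 95% interval from -3.12 to 1.70, edgeR adjusted p = 0.999). It differed by -1.18 ± 1.33 for automatic against in vivo and by -0.94 ± 1.32 for automatic against manual. For manual against in vivo the value was -0.24 ± 1.31, and 0.405 without the low-detection libraries. Its log2 CPM had Pearson r = -0.085 (permutation p = 0.767) and Spearman rho = -0.298 (permutation p = 0.279) with GDF9, and Pearson r = -0.193 (permutation p = 0.502) and Spearman rho = -0.297 (permutation p = 0.279) with BMP15. Without the 2 libraries farthest from the median of GDF9, Pearson r with GDF9 was -0.525. That value depends on the arbitrary choice among libraries tied at 0 counts of GDF9. Without manual 2 and automatic 3, the 2 farthest from the median of BMP15, Pearson r with BMP15 was 0.061.

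ZP2 and ZP4 were close to absent. ZP2 had 23 counts in automatic 3, 24 in in vivo 1 and at most 6 in any other library, and was at 0 in 9 of the 15 libraries (3 automatic, 2 manual and 4 in vivo). ZP4 had 2 counts in automatic 3, 10 in manual 1 and 8 in in vivo 4, and 0 in the other 12 libraries. NPM2 was found in 1 library of each group, with 5 counts in automatic 1, 5 in manual 1 and 47 in in vivo 3. These 3 genes were too low for a test, and no direction can be drawn from them. NPM1 and NPM3, the widely expressed relatives of NPM2, differed by log2 -0.49 ± 0.23 (SE) and -0.66 ± 1.44 for in vitro against in vivo, with edgeR unadjusted p = 0.0433 and 0.652.

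KIT was the most evenly detected of the 8 genes and the highest in the automatic group, although it did not pass over all genes. Automatic libraries 1 to 5 had 331, 136, 332, 276 and 204 CPM. Manual libraries 1 to 5 had 103, 175, 102, 92.8 and 95.9 CPM. In vivo libraries 1 to 5 had 93.7, 62.5, 213, 18.7 and 80.4 CPM. Of the 5 automatic libraries 4 lay above every manual library, and the exception, automatic 2, lay below manual 2. Against in vivo, 3 of 5 automatic and 0 of 5 manual libraries lay above in vivo 3, the highest. How many of all genes show such partial separations was not counted, so these tallies are a description only. KIT averaged 256 ± 84.9 CPM in automatic libraries, 114 ± 34.5 CPM in manual libraries and 93.7 ± 72.5 CPM in in vivo libraries (SD over 5 libraries each). In that order the manual and in vivo groups did not differ beyond their spread.

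KIT differed by log2 1.17 ± 0.50 for automatic against manual (SE, 95% interval from 0.08 to 2.26, edgeR unadjusted p = 0.0307, adjusted p = 0.9999). By that unadjusted threshold 1.48% of all genes tested were called in this comparison. Against in vivo, automatic denudation differed by 1.45 ± 0.50 (edgeR unadjusted p = 0.00973, adjusted p = 0.693), where 5.36% of genes had an unadjusted p under 0.05. Manual denudation differed from in vivo by 0.28 ± 0.49 (95% interval from -0.79 to 1.36). In vitro against in vivo gave 0.864 ± 0.444 (edgeR unadjusted p = 0.0666, adjusted p = 0.875). Without the low-detection libraries KIT was at 204 to 332 CPM in the 3 automatic libraries and at 92.8 to 103 CPM in the 4 manual libraries, with no overlap; in these libraries 2.92% of the genes had all automatic above all manual values. The fold change was then log2 1.57 (edgeR unadjusted p = 6.34e-04, adjusted p = 0.850), while manual against in vivo turned to -0.39.

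**Figure D3:**
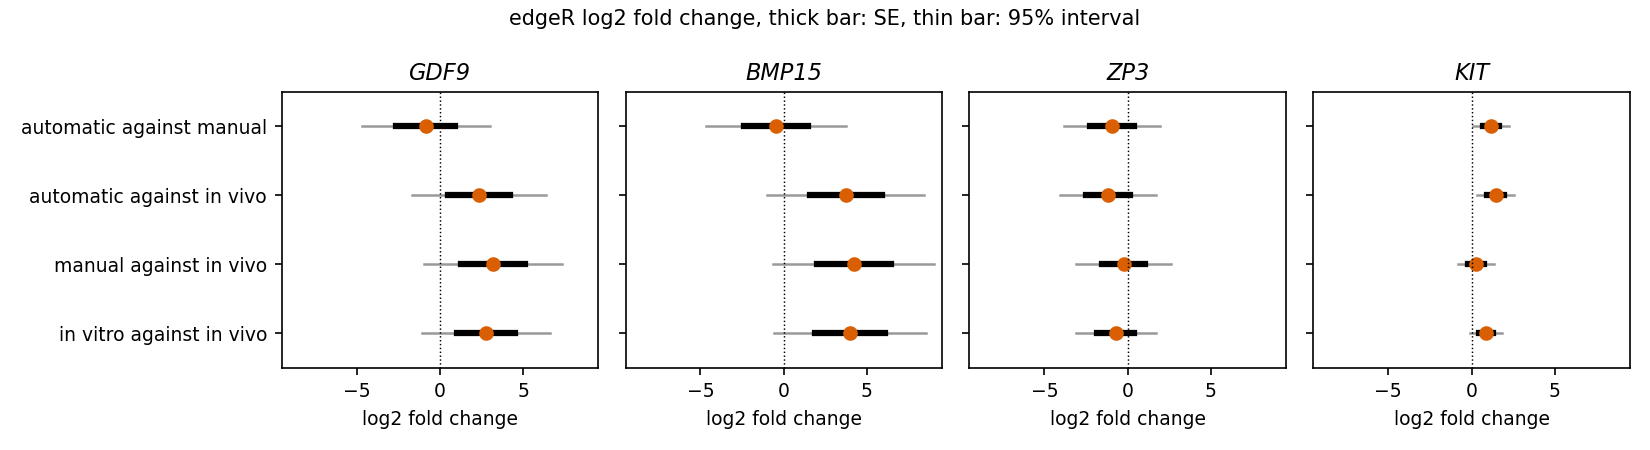
log2 fold changes (x axis) of GDF9, BMP15, ZP3 and KIT in the 4 comparisons named at the left; points are edgeR estimates, thick bars the SE and thin bars the 95% interval on 12 residual degrees of freedom. Of the 16 intervals 2 leave out 0, those of KIT for automatic against in vivo and for automatic against manual, and no value passes the adjusted test.

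Markers of other cells were set beside KIT. The summed CPM of 12 trophectoderm markers ranged from 4769 to 14632 in automatic libraries, from 8369 to 35164 in manual libraries and from 13858 to 32354 in vivo. The automatic and in vivo ranges overlapped only through automatic 3 and in vivo 2, a low-detection library. The median of that sum was 9564 CPM in automatic, 11777 CPM in manual and 24433 CPM in in vivo libraries. Most of that sum was KRT8 and KRT18, which averaged 5824 and 2571 CPM in automatic libraries. For automatic against in vivo 8 of 11 tested markers lay below 0 and 3 above. For automatic against manual 10 of 11 lay below 0 and 1 above. Their median log2 difference was -0.57, beside -0.05 for all genes tested. At an edgeR unadjusted p under 0.05, 3 of them lay lower, beside 102 of all 11578 genes, and 0 passed the adjusted test. Automatic 3, with the most KIT, had the highest sum of the automatic group, and automatic 4, with 276 CPM of KIT, had the lowest. The part of cell composition in the KIT values was not tested. KIT is also a marker of mast cells and melanocytes. The mast cell genes CPA3, MS4A2 and HDC and the leukocyte gene PTPRC had 0 counts in all 15 libraries, as did the pigment enzymes TYR and DCT. The fifth gene of the blood and mast cell list, the T cell gene CD3E, ranged from 0 to 0.108 CPM in automatic, from 0 to 0.307 CPM in manual and from 0 to 1.38 CPM in in vivo libraries. The other 2 of 4 melanocyte genes, PMEL and MLANA, had counts, and the list summed to 5.30 to 15.0 CPM in automatic, 6.003 to 17.1 CPM in manual and 2.67 to 8.06 CPM in in vivo libraries.

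KITLG, the ligand of KIT, was detected in 3 of 5 automatic, 4 of 5 manual and 3 of 5 in vivo libraries. It differed by log2 -2.02 ± 2.04 for automatic against manual and by 1.86 ± 1.86 for in vitro against in vivo (SE), and like ZAR1L, NPM1 and NPM3 it was named after its values were seen. Of 17 genes of KIT signalling, 17 were tested and 0 passed the adjusted edgeR test in any of the 4 comparisons. For automatic against manual 9 of 17 lay above 0, with a median log2 difference of 0.08 beside -0.05 for all genes tested. For in vitro against in vivo 11 of 17 lay above 0, with a median of 0.32 beside -0.04. STAT5A, a transcription factor that KIT and cytokine receptors can activate, had the smallest p of the list. It had 81, 0, 104, 499 and 409 counts in automatic libraries 1 to 5, 166 counts in manual 3 and 0 in all other manual and in vivo libraries. Its in vitro mean was 253 times the 3 counts that 0 allows over the in vivo group, and 122 times without automatic 4, a low-detection library (edgeR, all libraries, unadjusted p = 0.00779, adjusted p = 0.553). These ratios cover counting error only and not the spread between libraries. STAT5A was also at 0 in 5 of 10 cultured libraries.

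Of the receptors and SMAD proteins that carry GDF9 and BMP15 signals, 14 were listed, 12 were tested and 0 passed the adjusted edgeR test in any comparison. For in vitro against in vivo 7 of 12 lay above 0 with a median of 0.15, and single values ran from -3.04 for SMAD6, an inhibitor of BMP signals, to 3.21 for SMAD5. For automatic against manual 6 of 12 lay above 0 with a median of 0.06. SMAD6 was named after its values were seen. SMAD5, which transmits signals of the BMP branch, was the 1 gene of the list with an unadjusted p under 0.05 for in vitro against in vivo, at log2 3.21 ± 1.49 (SE, edgeR unadjusted p = 0.0443, adjusted p = 0.805). It ranged from 0.332 to 23.7 CPM in automatic, from 3.14 to 71.3 CPM in manual and from 0 to 4.19 CPM in in vivo libraries.

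Other oocyte and maternal genes, a list of 23 symbols of which 19 were in the table and 14 were tested, had 0 genes past the adjusted edgeR test in any comparison. For in vitro against in vivo 11 of 14 lay above 0, with a median log2 difference of 1.70 beside -0.04 for all genes tested. At an unadjusted p under 0.05, 5 lay higher and 1 (NPM1) lower, beside 285 higher and 425 lower of all 11578 genes. As in the other lists, genes can pass the filter through the group in which they are high. The lists were also chosen with earlier results of these data known, so these tallies and medians carry no support. For automatic against manual 7 of 14 lay above 0, with a median of 0.12 and 0 genes at an unadjusted p under 0.05. OOSP2, an oocyte-secreted protein, had 13, 36, 117, 0 and 25 counts in automatic libraries 1 to 5, 133, 69, 0, 0 and 30 counts in manual libraries 1 to 5 and 0 counts in all 5 in vivo libraries. Its in vitro mean was 73.5 times the 3 counts that 0 allows over the in vivo group (edgeR unadjusted p = 0.00362, adjusted p = 0.542). Without manual 1, its highest library, the ratio was 58.2. These ratios cover counting error only and not the spread between libraries. Counts of OOSP2 were thus found in 7 of 10 cultured libraries.

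DDX4, an RNA helicase of germ cells, was the other gene that the rule named from that list. It had 16.3, 93.0, 30.2, 0 and 27.5 CPM in automatic libraries 1 to 5 and 48.8, 236, 15.8, 8.99 and 13.1 CPM in manual libraries 1 to 5. In vivo it had 1 count in library 1, 121 counts (2.47 CPM) in library 3 and 0 in the other 3. All cultured libraries but automatic 4 thus lay above all in vivo libraries. DDX4 was named for its small p in this same comparison, so the pattern is a description only. The share of all genes with such a pattern was not counted. Its log2 fold change was 6.48 ± 1.93 for in vitro against in vivo (SE, edgeR unadjusted p = 0.00336, adjusted p = 0.534) and -0.95 ± 1.57 for automatic against manual. The oocyte transcription factors, 7 symbols of which 6 were in the table and 4 were tested, lay above 0 in 3 of 4 cases for in vitro against in vivo (median 0.64), and 0 of 4 had an unadjusted p under 0.05 in any comparison. FIGLA, a regulator of zona pellucida genes in mice, had at most 11 counts in a cultured library and at most 21 in vivo, and NOBOX, a homeobox factor of oocytes, had counts in 2 libraries (24 in automatic 1 and 6 in manual 1). FIGLA and NOBOX were named after their values were seen.

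Cumulus and granulosa cells, whose removal the study varied, could accompany an embryo. Of 15 markers 14 were in the table and 11 reached 10 counts in at least 1 library. FOXL2, a defining granulosa factor, was at 0 in all 15 libraries, and INHA had 5 counts in automatic 1 and 0 elsewhere. In contrast FSHR, the receptor of follicle-stimulating hormone, had at least 14 counts in every library (up to 13.7 CPM in automatic, 34.7 CPM in manual and 42.7 CPM in in vivo libraries), and CYP19A1, the aromatase of granulosa cells, at least 19 (up to 3.71, 53.0 and 15.9 CPM in the same order). The list summed to 5.30 to 54.2 CPM in automatic, 14.3 to 93.7 CPM in manual and 25.2 to 86.1 CPM in in vivo libraries, so the groups overlapped, and their part in the values of the oocyte genes was not tested. Genes that blastocysts also express, among them GJA1 and NR5A2, are on this list.

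With all 15 libraries, 0 of the 8 genes had groups without overlap. Among the genes tested, all values were above in 0.199% and below in 0.276% for in vitro against in vivo, and above in 0.916% and below in 1.16% for automatic against in vivo. They were above in 0.76% and below in 0.605% for manual against in vivo, and above in 0.138% and below in 0.527% for automatic against manual.

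Over all comparisons 0 of the 4 tested genes passed. By edgeR with Benjamini-Hochberg adjustment over 11578 genes, 0.0173% of all genes were called for in vitro against in vivo and 0.0173% for automatic against in vivo (2 genes each), and 0% for manual against in vivo and for automatic against manual, so a count of 0 members is near the background. At an unadjusted p under 0.05 edgeR gave 0 of 4 for in vitro against in vivo (6.13% of all genes), 1 of 4 for automatic against in vivo, 0 of 4 for manual against in vivo (3.39% of all genes) and 1 of 4 for automatic against manual, KIT in each case. DESeq2 also called 0 of the 4 in each comparison, with an unadjusted p of 0.0189 for BMP15 for in vitro against in vivo. The median log2 difference of the 4 genes was 1.82 for in vitro against in vivo beside -0.04 for all genes tested, and -0.66 for automatic against manual beside -0.05. A median over genes kept by a filter that their high group can satisfy carries no support.

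**Figure D4:**
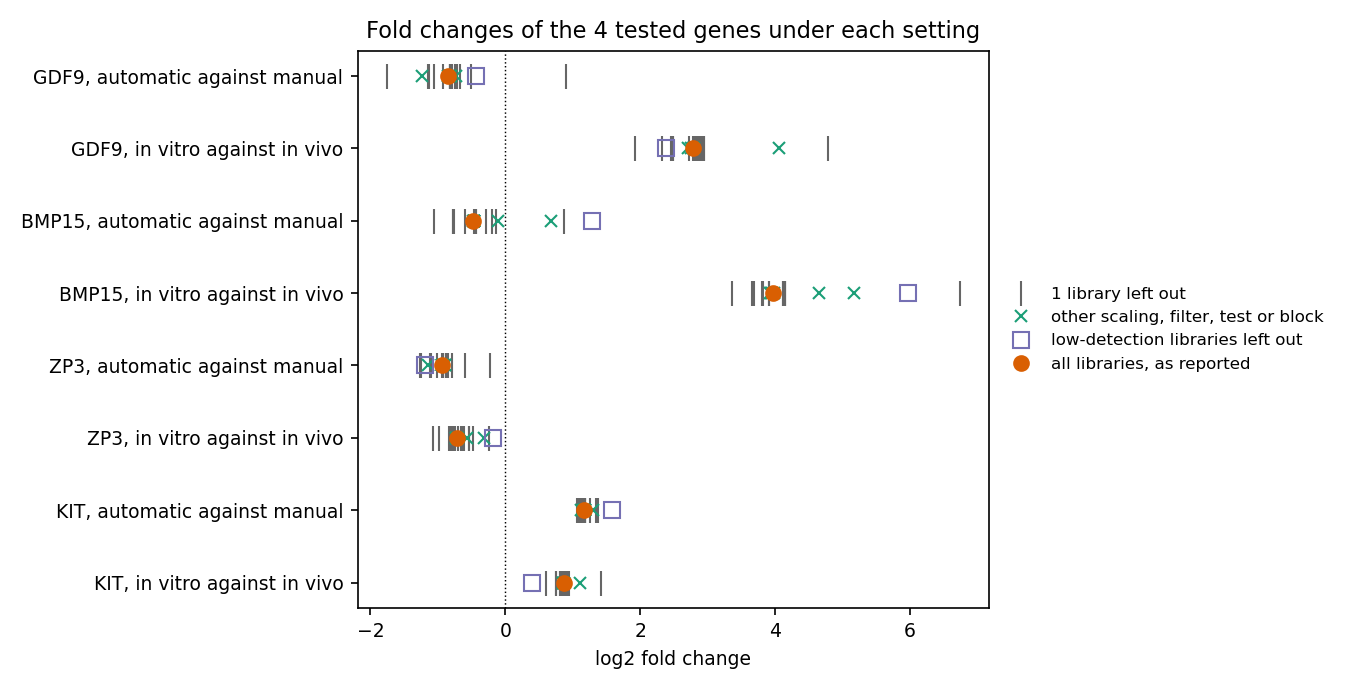
log2 fold change (x axis) of the 4 tested genes for automatic against manual and in vitro against in vivo (rows) with all libraries (circles), with each library left out (ticks), without the low-detection libraries (squares) and under another scaling, filter, test or block (crosses). KIT for automatic against manual stays between 1.07 and 1.57, whereas BMP15 for automatic against manual runs from -1.05 to 1.29.

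KIT also correlated inversely with ZP3 over the 15 libraries by rank, with Spearman rho = -0.654 (permutation p = 0.00982, adjusted p = 0.0295 over 6 pairs) and Pearson r = -0.465 (permutation p = 0.0908, adjusted p = 0.136). Group means ran in opposite order, with KIT at 256, 114 and 93.7 CPM and ZP3 at 8.18, 15.7 and 18.5 CPM in automatic, manual and in vivo libraries. Differences between groups thus enter these values, and the relation within each group was not tested. Without the 2 libraries farthest from the median of ZP3, Pearson r was -0.448, within the 10 cultured libraries -0.485, and within the 10 libraries that are not low-detection -0.671. In those 10 libraries ZP3 had Pearson r = -0.884 and KIT Pearson r = 0.647 with the number of detected genes, and the part of detection was not tested. Over all 15 libraries ZP3 had Pearson r = 0.265 (permutation p = 0.350) and Spearman rho = -0.200 (permutation p = 0.472) with that number, and KIT had Pearson r = 0.310 (permutation p = 0.266) and Spearman rho = 0.346 (permutation p = 0.208). The pairs of KIT with GDF9 (Spearman rho = 0.538, permutation p = 0.0405, adjusted p = 0.0607; Pearson r = 0.469, permutation p = 0.0759) and with BMP15 (Spearman rho = 0.577, permutation p = 0.0267, adjusted p = 0.0534; Pearson r = 0.482, permutation p = 0.0646) did not pass. Without the 2 libraries farthest from the median of GDF9, Pearson r of KIT with GDF9 was 0.776. That value depends on the arbitrary choice among libraries tied at 0 counts of GDF9. Without manual 2 and automatic 3, the 2 farthest from the median of BMP15, Pearson r of KIT with BMP15 was 0.379.

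The genes with the pattern most like that of each tested gene were found by the Pearson correlation of log2 CPM over the 15 libraries among the other 11577 genes. They are a description of the highest of many values. For BMP15 they were OOSP2 at 0.871, CCNDBP1 at 0.802 and ENPP2 at 0.802. For GDF9 they included LMNB1 at 0.830 and CCDC201 at 0.828. For KIT they were BTRC at 0.915, PPFIBP2 at 0.880 and LMBRD1 at 0.847. For ZP3 they were RPUSD2 at 0.926, ISY1 at 0.923 and UBE2E2 at 0.920, with Spearman values of 0.579, 0.557 and 0.713. Like ZP3, RPUSD2, ISY1 and UBE2E2 had 0 counts in automatic 4 and at most 2 in manual 2, so these high values share 2 libraries near 0.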

How the data were processed

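The values are estimated counts, whole numbers that the authors deposited in 1 table with 1 line per gene and no scaling between libraries. The submitters' processing notes name FastQC, fastp and kallisto, with neither roles nor versions. Which build and transcripts were used, and how molecular identifiers were handled, is not given in the sources used here. For that reason neither coordinates nor sequences are shown, and close paralogues can share reads. A line without a gene name (1) was left out. Of the 17259 genes 17059, including all 8 described, matched a symbol of the RefSeq annotation of cattle. In vivo columns were matched to samples by library name. Automatic and manual columns, headed by A or M and a number, were matched by the initial letter and number of the library name.

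All 15 libraries entered 1 fit of edgeR 4.0.16 in R 4.3.3 (TMM, filterByExpr, robust quasi-likelihood F test); rounding changed 0 values. A call needed a Benjamini-Hochberg adjusted p under 0.05 over 11578 genes. In vitro is the mean of automatic and manual. The SE came from the log2 fold change and the F statistic. Correlations used log2 CPM (prior count 2) and 100000 permutations, two-sided, over all libraries without regard to group, so differences between groups enter their p. Beside all 8 genes, the text names from each list up to 2 genes with the smallest unadjusted p under 0.05, for in vitro against in vivo and for automatic against manual, and the 3 genes most like each tested gene, of which 1 is not reported here. The fit was tested on simulated data. Alternatives were other scalings and filters, DESeq2 1.42.0, only the groups compared, a replicate block, and libraries left out. The genes and lists were chosen with earlier results of these data known. Library totals of 17.96 M to 41.97 M set how far the floor of 3 counts reaches. Replicate libraries all differed by more than sampling noise (lowest chi-square 199 per degree of freedom).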

Additional observations from a re-analysis of the deposited data

Results flagged for a closer look

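In groups of 5 libraries, a library was marked where its log2 CPM stood apart from the other 4 by more than 0.71 of the range of the group. This held in 12 of 24 combinations of gene and group, where chance would mark about 1 in 20. In most of them the other 4 libraries were at or near 0, so that a few counts suffice.

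KIT stood apart in manual 2, at 175 CPM beside 103 CPM in the next manual library. ZP3 stood apart in automatic 4, with a value of 0 CPM beside 4.88 CPM in the next. ZAR1 stood apart in automatic 4, at 8.41 CPM (152 counts), and in in vivo 3, at 0.164 CPM (8 counts). Manual 2 and automatic 4 are low-detection libraries. ZP2 stood apart in automatic 3, at 0.556 CPM, and in in vivo 1, at 0.544 CPM. ZP4 stood apart in automatic 3, at 0.0484 CPM, in manual 1, at 0.307 CPM, and in in vivo 4, at 0.366 CPM. NPM2 stood apart in automatic 1, at 0.156 CPM, in manual 1, at 0.154 CPM, and in in vivo 3, at 0.961 CPM.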

How the results depend on the processing

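No setting tried called GDF9, BMP15, ZP3 or KIT in any comparison, leave-one-out fits included (0 to 0 members called). For in vitro against in vivo, each of the 4 genes kept its sign in every setting tried. The signs that turned were ZP3 for manual against in vivo (0.160 with library totals alone, 4.16e-04 with the replicate block, 0.405 without low-detection libraries, 0.0887 without manual 2, 0.228 without in vivo 2), KIT for manual against in vivo (-0.388 once the 5 low-detection libraries were left out), BMP15 for automatic against manual (0.678 with the replicate block, 1.29 without the low-detection libraries, 0.863 without manual 2) and GDF9 for automatic against manual (0.901 without manual 1). With 1 library left out, ZP3 for manual against in vivo ranged from -0.955 to 0.228, GDF9 for automatic against manual from -1.76 to 0.901 and BMP15 for automatic against manual from -1.05 to 0.863. The cause was not tested.

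Counts of genes called over the whole table moved more. Given for in vitro against in vivo, automatic against in vivo, manual against in vivo and automatic against manual, they were 2, 2, 0 and 0 as reported, 86, 87, 44 and 9 by DESeq2, 8, 7, 1 and 0 with the replicate block, and 7, 9, 3 and 1 without the low-detection libraries. Library totals alone gave 0 in all 4. For automatic against in vivo the count was 1 without a filter and 1 in the fit of only the groups compared. With 1 library left out they ranged from 0 to 7, 0 to 4, 0 to 0 and 0 to 0. Library totals alone moved the median of all genes for in vitro against in vivo from -0.04 to 0.10. Same-numbered libraries were not taken as pairs, since the labels tie the numbers to nothing shared. Pairing also asked for every correlation of deviations to be over 0.1. Of these 8 of 15 were, all 15 were positive (0.00137 to 0.380), and numbers 1 and 3 passed in all groups. A library correlated best with its own number in 12 of 30 checks, each among the 5 libraries of another group. Whether same-numbered libraries share a batch was not tested. The filter of 1 CPM in 5 libraries left out GDF9, DESeq2 gave GDF9 no adjusted p for automatic against in vivo, and the fit of manual and in vivo alone tested 2 of the 4 genes. The low counts of GDF9, BMP15 and ZAR1 limit what can be seen.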
